A study of Homo sapiens with 9 samples.

Results

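The genes of the cytosolic ribosomal proteins were followed across Kyse150 and TE11, human cell lines of squamous carcinoma of the esophagus, in which the histone demethylase KDM2A had been targeted with a short hairpin RNA. Members were the protein-coding genes listed in the count tables of both lines whose symbol is RPL or RPS followed by a number, with an optional A, X, Y or L, together with RPLP0, RPLP1, RPLP2, RPSA and FAU. Kinases named after RPS6 and copies on the Y chromosome were left out. This gave 83 genes, 50 for the large (60S) and 33 for the small (40S) subunit, of 52165 gene identifiers listed for both lines and of 19238 protein-coding ones. The rule used names only and no measured value.

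Each ribosome carries a single copy of almost every one of these proteins, so cells are known to keep the output of the genes in near balance. Their mRNAs usually begin with a C followed by a run of pyrimidines, the 5′ terminal oligopyrimidine (TOP) start, through which the kinase complex mTORC1 and the RNA-binding protein LARP1 control translation and storage of these mRNAs. Several members act outside the ribosome as well: RPL5 and RPL11, with 5S rRNA, bind and inhibit MDM2, a ubiquitin ligase. A few members are diverged copies with restricted use, such as RPL3L in skeletal and heart muscle and RPL10L and RPL39L in testis.

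Polyadenylated RNA was sequenced in paired ends from 9 libraries in 4 groups. The groups were Kyse150 with the KDM2A hairpin (shKDM2A, labelled KDM2A knockdown, 2 libraries), Kyse150 with a control hairpin (shNC, labelled control, 2 libraries), TE11 labelled with the KDM2A hairpin (2 libraries) and TE11 with the control hairpin (3 libraries). Per the series' design text the hairpin was delivered by lentivirus, so all 4 groups carry a hairpin, and the labels name no other hairpin against KDM2A and no clone or pool. Both lines were grown in RPMI medium with fetal bovine serum, and the labels give no age, passage or time after infection. The labels call the replicates independent but do not say at which step, and p-values therefore reflect library-to-library spread that may be technical.

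The first bases of the transcripts are shown because the TOP start is the sequence feature that the family shares. RefSeq promoters of build GRCh38.p14 were found for 66 of the 83 members. In 47 of these 66 (71.2%) at least 1 listed start was a C followed by 4 or more C or T, against 5.14% of the 27305 genes in that table. The other motifs searched on both strands, in the 300 bases around each start, were CCGGAAG, the core bound by ETS factors such as GABPA (34.8% of members, 12.2% of all genes), GGGCGG (60.6%, 48.3%), TATAAA (9.09%, 13.99%) and the E-box CACGTG (6.06%, 8.77%). Each line below gives 10 bases before the start and 20 from it on, 5′ to 3′, with the pyrimidine run in capitals where the start met the rule. These 12 members had some of the larger changes in at least 1 line.
RPL12 (chr9:127451387-127451416, minus strand): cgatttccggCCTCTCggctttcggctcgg
RPS18 (chr6:33272065-33272094, plus strand): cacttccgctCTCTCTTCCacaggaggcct
RPS27 (chr1:153990752-153990781, plus strand): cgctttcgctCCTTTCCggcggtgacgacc
RPL13A (chr19:49487598-49487627, plus strand): aaacctcctcCTTTTCCaagcggctgccga
RPL26 (chr17:8383174-8383203, minus strand): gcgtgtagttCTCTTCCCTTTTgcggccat
RPS13 (chr11:17077648-17077677, minus strand): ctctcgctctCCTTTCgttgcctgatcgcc
RPS25 (chr11:119018324-119018353, minus strand): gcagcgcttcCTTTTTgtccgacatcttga
RPL22 (chr1:6199576-6199605, minus strand): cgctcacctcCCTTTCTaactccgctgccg
RPL3 (chr22:39319604-39319633, minus strand): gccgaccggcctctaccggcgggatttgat
RPS26 (chr12:56041908-56041937, plus strand): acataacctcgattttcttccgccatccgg
RPL36AL (chr14:49620607-49620636, minus strand): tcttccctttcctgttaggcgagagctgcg
RPS27L (chr15:63157458-63157487, minus strand): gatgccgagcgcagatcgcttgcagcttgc

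The hairpin's target was read first. KDM2A held 719 and 646 counts in the Kyse150 knockdowns, against 1215 and 1199 in the Kyse150 controls. The change in KDM2A was -0.71 (± 0.07 standard error, edgeR adjusted p = 3.87e-09) on the log2 scale. Levels are given as CPM, counts scaled to the library size, with TMM factors for composition, within each line's table. In TE11 the level of KDM2A was 126 and 139.5 CPM in the libraries labelled knockdown, against 120.0, 116 and 120.0 CPM in the controls, so it was not lower in the libraries labelled knockdown (log2 fold change 0.16 ± 0.07 SE, edgeR adjusted p = 0.0335). That small positive call did not survive without labelled knockdown replicate 2 (edgeR adjusted p = 0.398), control replicate 2 (0.0772) or control replicate 3 (0.0969), nor in DESeq2 (0.0739) or with coding GC offsets (0.192). These TE11 libraries also stood apart in the ribosomal protein genes themselves. Over the 76 members above 10 CPM on average, their log2 profile had Pearson's r of 0.956 to 0.961 across genes with the Kyse150 controls and of 0.920 to 0.924 with the TE11 controls. The median absolute log2 difference of a member was 0.159 to 0.197 from the Kyse150 controls and 0.410 to 0.450 from the TE11 controls. All TE11 directions below therefore compare the libraries labelled knockdown with the TE11 controls, and their relation to KDM2A cannot be told from the labels. Gene counts per library ranged from 6052883 to 7167055 in Kyse150 and from 8457767 to 12073098 in TE11. Of the 5 epithelial markers, KRT5, TP63 and EPCAM were detected in every library, and none of the 5 was at 0 throughout a group. Of the 3 leukocyte markers, PTPRC was at 0 in all 9 libraries, and the 3 together summed to 0 to 1.17 CPM a library.

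Ribosomal protein genes took a slightly larger share of the gene counts in Kyse150 knockdowns than in controls. This share is of raw counts, without the TMM factors that enter the CPM and fold changes. Those factors were 1.011 and 1.024 in the Kyse150 knockdowns, against 0.988 and 0.978 in the controls, which lowers the CPM of the knockdowns. With them the median log2 fold change of the members in Kyse150 was -0.01. The share was 5.87% and 5.75% in the Kyse150 knockdowns, against 5.48% in both Kyse150 controls, a difference of 0.329 percentage points between means of 5.81 ± 0.085 and 5.48 ± 0.005 (SD, n = 2 each). In TE11 it was 5.88% and 6.01% in the libraries labelled knockdown, against 5.89%, 5.76% and 5.73% in the controls, a difference of 0.152 points between 5.95 ± 0.091 (SD, n = 2) and 5.79 ± 0.090 (SD, n = 3). The Kyse150 groups did not overlap and the TE11 groups did. With so few libraries no exact test can pass 0.05, and none is given. Counts of 60S genes over counts of 40S genes gave 1.69 in Kyse150 knockdowns, 1.71 in Kyse150 controls, 1.70 in the TE11 libraries labelled knockdown and 1.48 in TE11 controls. In TE11 the sign of the share turned with the denominator: over protein-coding genes alone the difference was -0.168 points. In bulk RNA, fewer cells of a type and less RNA per cell cannot be told apart. The share held by annotated pseudogenes of the members moved alongside, with 0.285% in Kyse150 knockdowns against 0.257% in Kyse150 controls and 0.254% in the TE11 libraries labelled knockdown against 0.191% in TE11 controls, and their part in the result was not tested.

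**Figure D1:**
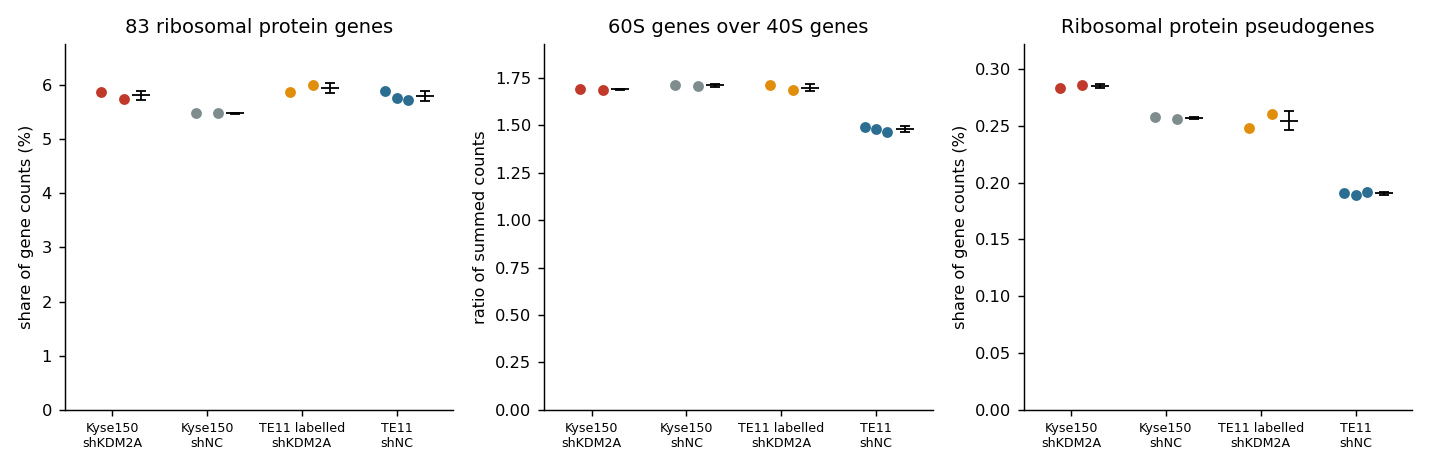
Each point is 1 library, by group; the panels show the share of gene counts on the 83 members (%), the ratio of 60S to 40S counts, and the share on their annotated pseudogenes (%), with mean and SD as a bar beside the points. The member share sits between 5.48% and 6.01% in all 9 libraries, while the TE11 controls stand lower than the other 3 groups in the 60S to 40S ratio and in the pseudogene share. The denominators differ between the lines, since mitochondrial genes hold 5.56% to 6.75% of gene counts in Kyse150 and 0 in TE11. Without these genes the member share in Kyse150 is 5.80% to 6.29%.

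Within Kyse150, the ribosomal protein genes split in both directions and moved little. Of the 79 members tested, 15 were higher in the knockdowns (beside 24.8% of all genes), 21 were lower (beside 23.3% of all genes) and 43 did not pass the threshold of 0.05 (edgeR, Benjamini-Hochberg over 14060 genes). The called share was 45.6%, beside 48.2% of all genes tested. With a fold change of at least 1.5 as well, 2 members were called (2.53%), RPL26 and RPL36AL, both lower, beside 23.3% of all genes in either direction and 8.5% lower. The median log2 fold change was -0.01 for the members and 0.00 for all genes, and the interquartile range was 0.29 and 0.69. Members are abundant, with 70 of them at 100 CPM or more, so genes of at least that level are the nearer background: 65.4% of those 2260 genes were called, 13.7% with 1.5-fold, and the interquartile range was 0.48. By subunit, 8 of 47 tested 60S genes were higher and 12 lower, and 7 of 32 tested 40S genes were higher and 9 lower. The split depends on the scaling: with library totals in place of TMM factors, which moved the median of all genes by 0.05, 24 members were higher and 18 lower. It also leans on single libraries, with 7 members higher without knockdown replicate 1 and 9 without control replicate 1. The CPM of the groups did not overlap for 60 of the 83 members, beside 73.3% of all genes tested.

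Marker genes differed between the same Kyse150 libraries. The 5 markers of squamous epithelium, the lines' own type, summed to 1377 to 1400.2 CPM in the knockdowns, against 1550.4 to 1557 CPM in the controls. Of these, KRT14 (log2 fold change 1.56 ± 0.13 SE, edgeR adjusted p = 7.82e-11) and TP63 (log2 fold change 0.37 ± 0.08 SE, edgeR adjusted p = 0.000296) were higher. KRT5 (log2 fold change -0.24 ± 0.05 SE, edgeR adjusted p = 0.000219) and EPCAM (log2 fold change -0.33 ± 0.07 SE, edgeR adjusted p = 0.000189) were lower. The 4 fibroblast markers summed to 10.7 to 11.8 CPM in the knockdowns, against 6.37 to 6.70 CPM in the controls. Nearly all of that sum was COL1A1, a collagen chain (log2 fold change 0.78 ± 0.22 SE, edgeR adjusted p = 0.00456), with COL1A2 at 0 in all 4 libraries and LUM at 0 in the knockdowns. The endothelial markers summed to 1.79 to 2.26 CPM in the knockdowns, against 1.27 to 2.77 CPM in the controls, and the leukocyte markers to 0.745 to 1.13 CPM, against 1.13 to 1.17 CPM in the controls. The part of these genes in the ribosomal protein result was not tested.

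**Figure D2:**
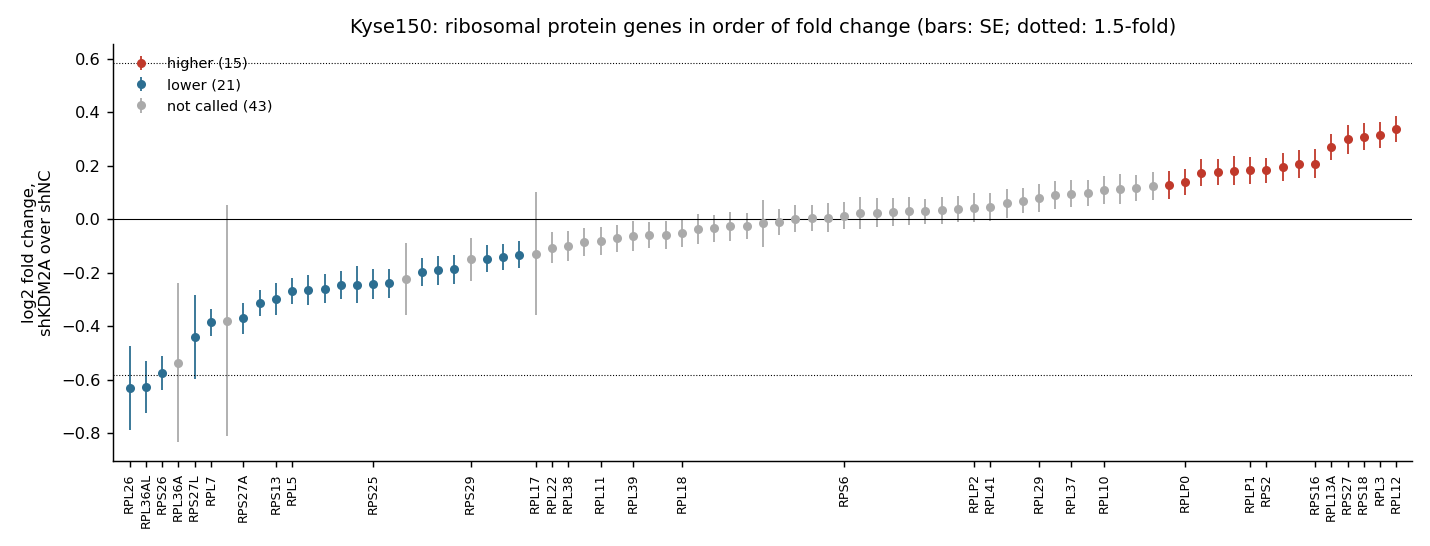
Log2 fold change of the 79 tested members in Kyse150 (shKDM2A over shNC, vertical axis), ordered along the horizontal axis, with SE bars and some of the genes named; red marks the 15 called higher, blue the 21 called lower, grey the 43 not called, and dotted lines stand at 1.5-fold. The values run from -0.63 for RPL26 and RPL36AL to 0.34 for RPL12.

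The largest rises in Kyse150 were in RPL12, RPL3, RPS18, RPS27, RPL13A and RPS16. RPL12, which lies at the base of the stalk that recruits elongation factors, had 1061 and 1047 CPM in the knockdowns, against 838 and 832 CPM in the controls. The change in RPL12 was 0.34 (± 0.05 standard error, edgeR adjusted p = 2.22e-06) on the log2 scale. RPL3, close to the peptidyl transferase centre of the large subunit, had 1776 and 1689 CPM in the knockdowns, against 1403 and 1384 CPM in the controls. The change in RPL3 was 0.31 (± 0.05 standard error, edgeR adjusted p = 4.34e-06) on the log2 scale. Both knockdowns lay above both controls for these genes and did not overlap them. RPS18, a protein of the head of the small subunit, had 1071 and 1063 CPM in the knockdowns, against 829.9 and 894 CPM in the controls (log2 fold change 0.31 ± 0.05 SE, edgeR adjusted p = 1.35e-05). RPS27, a zinc-finger protein of the small subunit, had 649 and 641 CPM in the knockdowns, against 502 and 547 CPM in the controls (log2 fold change 0.30 ± 0.05 SE, edgeR adjusted p = 4.77e-05). RPL13A, which also takes part in transcript-selective silencing of translation in myeloid cells, had 1394 and 1344 CPM in the knockdowns, against 1126 and 1143 CPM in the controls (log2 fold change 0.27 ± 0.05 SE, edgeR adjusted p = 3.72e-05). For these 5 genes the call and its direction held under each of the 14 alternatives. RPS16, whose tail reaches the P-site tRNA, had 810.1 and 753 CPM in the knockdowns, against 651 and 702 CPM in the controls (log2 fold change 0.21 ± 0.05 SE, edgeR adjusted p = 0.00229), and its call was lost without knockdown replicate 1 (edgeR adjusted p = 0.0621) and without control replicate 1 (edgeR adjusted p = 0.0822).

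The largest falls in Kyse150 exceeded the largest rises in size. RPL26 (ENSG00000161970, chr17:8377516-8383250, minus strand of GRCh38 by GENCODE 29), a protein near the exit of the peptide tunnel, had 17.3 and 15.4 CPM in the knockdowns, against 27.0 and 23.6 CPM in the controls. The change in RPL26 was -0.63 (± 0.16 standard error, edgeR adjusted p = 0.00149) on the log2 scale. Its counts were low, at 116 and 95 in the knockdowns and 191 and 162 in the controls. In GENCODE 29, 14.3% of its exon bases are shared with another gene, though the Kyse150 counting may have used another annotation. RPL36AL, a paralog of RPL36A, had 47.2 and 42.7 CPM in the knockdowns, against 70.4 and 68.9 CPM in the controls (log2 fold change -0.63 ± 0.10 SE, edgeR adjusted p = 6.12e-06). RPS26, which lines the mRNA exit channel and is mutated in Diamond-Blackfan anaemia, had 183 and 173 CPM in the knockdowns, against 261 and 271 CPM in the controls. The change in RPS26 was -0.57 (± 0.06 standard error, edgeR adjusted p = 2.27e-08) on the log2 scale. In these genes every knockdown library lay below every control library. RPL7 of the large subunit had 723 and 729 CPM in the knockdowns, against 982 and 916 CPM in the controls (log2 fold change -0.39 ± 0.05 SE, edgeR adjusted p = 5.62e-07). RPS27A, made as a fusion with ubiquitin, had 294 and 311 CPM in the knockdowns, against 402 and 380.2 CPM in the controls (log2 fold change -0.37 ± 0.06 SE, edgeR adjusted p = 6.09e-06). RPS27L, a paralog of RPS27, had 16.7 and 16.8 CPM in the knockdowns, against 24.2 and 21.3 CPM in the controls. The change in RPS27L was -0.44 (± 0.16 standard error, edgeR adjusted p = 0.0216) on the log2 scale. That call was weak: it was lost in DESeq2 (adjusted p = 0.139), with coding GC offsets (-0.24, 0.185) and without knockdown replicate 1 (0.0799), knockdown replicate 2 (0.0596) or control replicate 1 (0.172). The remaining 15 called falls ran from -0.31 for RPL6 to -0.13 for RPS24. Of all 21 falls, 16 held in direction and call under each of the 14 alternatives.

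Members with roles beyond peptide synthesis did not move together in Kyse150. RPL5, which binds MDM2 in the 5S RNA particle, had 968 and 951 CPM in the knockdowns, against 1166 and 1144 CPM in the controls. The change in RPL5 was -0.27 (± 0.05 standard error, edgeR adjusted p = 4.77e-05) on the log2 scale. Its partner RPL11 had 531 and 548 CPM in the knockdowns, against 568 and 573 CPM in the controls, and this difference of -0.08 on the log2 scale did not pass the test (edgeR adjusted p = 0.202). RPS6, the substrate of the S6 kinases, had 646 and 663 CPM in the knockdowns, against 645 and 652 CPM in the controls, and the groups overlapped (log2 fold change 0.01 ± 0.05 SE, edgeR adjusted p = 0.855). The acidic stalk proteins recruit elongation factors. Among them RPLP0 had 2152 and 1985 CPM in the knockdowns, against 1833 and 1924 CPM in the controls (log2 fold change 0.14 ± 0.05 SE, edgeR adjusted p = 0.0217). RPLP1 had 1307 and 1232 CPM in the knockdowns, against 1151 and 1085 CPM in the controls (log2 fold change 0.18 ± 0.05 SE, edgeR adjusted p = 0.00372). RPLP2 had 521 and 489 CPM in the knockdowns, against 478 and 502 CPM in the controls (log2 fold change 0.04 ± 0.05 SE, edgeR adjusted p = 0.537). The stalk calls rest on single libraries: RPLP0 missed the threshold in DESeq2 (adjusted p = 0.0545), without knockdown replicate 1 (edgeR adjusted p = 0.333) and without control replicate 1 (0.243), and RPLP1 without knockdown replicate 1 (0.0744) and without control replicate 2 (0.106).

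The direction in Kyse150 went with the base composition of the coding sequence, which the choice of members did not use. Among the 28 tested members with a coding GC content under 48%, 0 were higher and 15 lower, with a median log2 fold change of -0.23, beside 12.9% higher and 34.1% lower of the 3983 tested genes in that range. Of the 23 members between 48% and 54%, 4 were higher and 4 lower, with a median of 0.03, beside 28.0% and 23.9% of 2193 genes. Of the 28 members at 54% or more, 11 were higher and 2 lower, with a median of 0.09, beside 37.2% and 20.0% of 5057 genes. Across the 79 members Spearman's rho between coding GC and log2 fold change was 0.53, beside 0.29 across the 11233 tested genes with a coding sequence. These genes were measured in the same 4 libraries, so the points are not independent. In TE11 the same correlation was -0.20 across 82 members and -0.06 across 12553 genes. With the trend on coding GC removed from each Kyse150 library, a setting chosen after seeing the data, 15 members were higher and 26 lower.

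**Figure D3:**
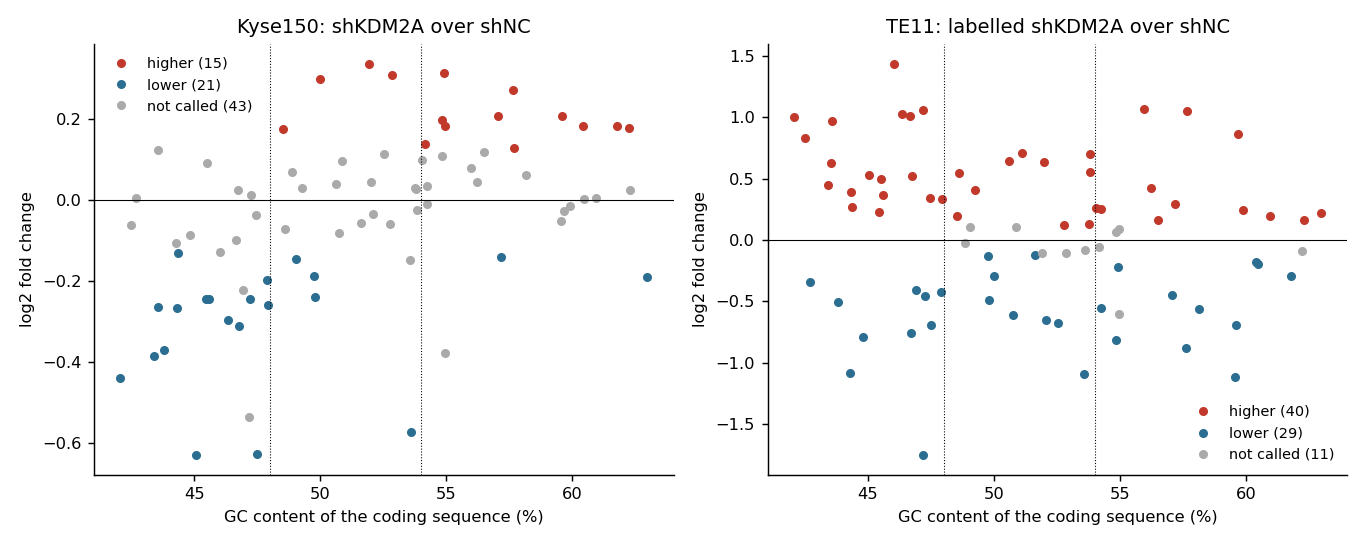
GC content of the coding sequence (horizontal axis, %) against log2 fold change (vertical axis) for the tested members, Kyse150 left and TE11 right, coloured by call, with dotted lines at 48% and 54%. RPL39L and RPL3L, at 0 counts in the TE11 libraries labelled knockdown, are not drawn. In Kyse150 the 28 members under 48% hold 0 rises and 15 falls, while in TE11 rises and falls stand in all 3 ranges.

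In TE11 the members differed more widely between the libraries labelled knockdown and the controls. Of 82 members tested, 40 were higher in the libraries labelled knockdown (beside 35.9% of all genes), 31 were lower (beside 42.2% of all genes) and 11 were not called (edgeR, Benjamini-Hochberg over 16453 genes). The called share was 86.6%, beside 78.1% of all genes, and 87.2% of the 2210 genes at 100 CPM or more. At 1.5-fold or more, 15 members were higher (beside 24.9% of all genes) and 15 lower (beside 34% of all genes), 36.6% in all, beside 58.8% of all genes and 49.3% of the genes at 100 CPM or more. The median log2 fold change was 0.11 for members and -0.09 for all genes, and the interquartile range was 0.89 and 1.71. In the large subunit 24 of 49 tested genes were higher and 17 lower, and in the small subunit 16 of 33 were higher and 14 lower. Over the 15 alternatives, 32 of the 40 rises and 25 of the 31 falls kept their direction and call in each. The groups did not overlap for 79 of the 83 members, beside 84.3% of all genes tested. Markers of the lines' own squamous type and of other cell types differed between the same libraries. The summed level of the 5 squamous markers was 1343 to 1372 CPM in the libraries labelled knockdown, against 3109 to 3413 CPM in the controls, and all 5 were called lower. For the 4 fibroblast markers the sum was 2.68 to 3.67 CPM, against 16.4 to 18.8 CPM in the controls, with 2 of 2 tested called lower and COL1A2 at or near 0 in all TE11 libraries. For the 3 endothelial markers it was 0.931 to 1.67 CPM, against 5.50 to 7.94 CPM, with 2 of 2 tested lower and PECAM1 at 0 in the libraries labelled knockdown. The leukocyte markers summed to 0.698 to 1.001 CPM in the libraries labelled knockdown and to 0 to 0.262 CPM in the controls, with PTPRC at 0. Their part in the ribosomal protein result was not tested.

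Among the rises in TE11, several reached a log2 fold change of 1. RPL29 of the large subunit had 906 and 939 CPM in the libraries labelled knockdown, against 446, 434 and 439 CPM in the controls. The change in RPL29 was 1.07 (± 0.05 standard error, edgeR adjusted p = 3.56e-22) on the log2 scale. RPS25, needed for initiation at several viral internal ribosome entry sites, had 527 and 553 CPM in the libraries labelled knockdown, against 263, 263 and 253 CPM in the controls (log2 fold change 1.06 ± 0.06 SE, edgeR adjusted p = 3.83e-21). For both genes the libraries labelled knockdown lay above the 3 controls. RPS13 had 364 and 399 CPM in the libraries labelled knockdown, against 178, 199 and 184 CPM in the controls (log2 fold change 1.03 ± 0.06 SE, edgeR adjusted p = 2.27e-19). RPL38, which in mice is needed for translation of a set of Hox mRNAs, had 386 and 413 CPM in the libraries labelled knockdown, against 189.6, 191 and 213 CPM in the controls (log2 fold change 1.01 ± 0.06 SE, edgeR adjusted p = 3.09e-19). RPS25 shares 20.8% of its exon bases with genes on the opposite strand, and RPL38 17.7%. The strand setting of the counting was not given. The rise of RPL17 was the largest by the estimate, but it rests on 60 and 64 counts in the libraries labelled knockdown, against 40, 28 and 22 in the controls (log2 fold change 1.44 ± 0.25 SE, edgeR adjusted p = 2.2e-06). RPL17 shares 35.3% of its exon bases with other annotated genes, among them the read-through gene RPL17-C18orf32, so its counts depend on how shared fragments were assigned.

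The falls in TE11 were led by diverged copies and low-count genes. RPL36A had 11 and 18 counts in the libraries labelled knockdown, against 54, 62 and 78 in the controls (log2 fold change -1.75 ± 0.30 SE, edgeR adjusted p = 1.24e-06). That direction did not hold once the counts of its annotated pseudogenes were added: the log2 difference was then 0.05 (edgeR adjusted p = 0.539). Its paralog RPL36AL had 104 and 104 CPM in the libraries labelled knockdown, against 173, 163 and 168 CPM in the controls (log2 fold change -0.69 ± 0.07 SE, edgeR adjusted p = 3.44e-12). RPL18 of the large subunit had 375 and 408 CPM in the libraries labelled knockdown, against 905, 839 and 793 CPM in the controls (log2 fold change -1.11 ± 0.06 SE, edgeR adjusted p = 7.56e-21). RPS29, a small zinc-binding protein of the 40S head, had 95.8 and 107 CPM in the libraries labelled knockdown, against 199.6, 233 and 215 CPM in the controls (log2 fold change -1.09 ± 0.07 SE, edgeR adjusted p = 8.28e-18). In these genes the libraries labelled knockdown lay below every control. RPL13A had 891 and 962 CPM in the libraries labelled knockdown, against 1739, 1712 and 1659 CPM in the controls (log2 fold change -0.88 ± 0.05 SE, edgeR adjusted p = 5.58e-19). RPL11 fell by 0.61 on the log2 scale (± 0.06 SE, edgeR adjusted p = 1.47e-12) and RPS6 by 0.45 (± 0.05 SE, 5.84e-10), while RPL5 rose by 0.39 (± 0.05 SE, 7.01e-09). In the stalk, RPLP2 rose by 0.42 (± 0.06 SE, edgeR adjusted p = 1.73e-08), and RPLP0 and RPLP1 gave -0.05 and 0.09 without passing the test.

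Several paralog pairs differed between the TE11 groups. RPL22, an RNA-binding 60S protein lost in several cancers, had 60.9 and 54.1 CPM in the libraries labelled knockdown, against 107, 136 and 122 CPM in the controls. The change in RPL22 was -1.08 (± 0.09 standard error, edgeR adjusted p = 3.02e-15) on the log2 scale. RPL22L1, its paralog and not a member, had 126 and 140.3 CPM in the libraries labelled knockdown, against 15.2, 20.6 and 16.4 CPM in the controls. The change in RPL22L1 was 2.94 (± 0.09 standard error, edgeR adjusted p = 5.82e-30) on the log2 scale. In Kyse150 RPL22 had 255 and 252 CPM in the knockdowns, against 269 and 277 CPM in the controls (edgeR adjusted p = 0.14) and RPL22L1 had 119.5 and 122 CPM in the knockdowns, against 117 and 101 CPM in the controls (0.125), and neither difference passed the test. The RPL22L1 level of the TE11 libraries labelled knockdown was thus near that of the Kyse150 libraries, whereas their RPL22 level was the lowest of the 4 groups, with each line's table scaled separately. RPL39L held 0 and 0 counts in the TE11 libraries labelled knockdown, against 220, 246 and 214 in the TE11 controls, and 0 in all 4 Kyse150 libraries. Set against a floor of 3 counts over the group, it was at least 115-fold lower in the libraries labelled knockdown. Its partner RPL39 had 615 and 675 CPM in the libraries labelled knockdown, against 307, 391 and 388 CPM in the controls (log2 fold change 0.83 ± 0.08 SE, edgeR adjusted p = 9.92e-10). RPL3L held 0 and 0 counts in the libraries labelled knockdown and 14, 12 and 10 in the TE11 controls, at least 6.08-fold lower by the same floor, and 2 to 8 counts in Kyse150 libraries, where it was not tested. Its partner RPL3 fell by 0.22 on the log2 scale (± 0.05 SE, edgeR adjusted p = 0.000181). RPL10L held 0 counts in all 9 libraries, and its partner RPL10 passed the test in neither line, with log2 fold changes of 0.11 in Kyse150 and 0.07 in TE11. RPS27L rose in TE11, with 33.5 and 30.4 CPM in the libraries labelled knockdown, against 15.9, 16.6 and 15.2 CPM in the controls (log2 fold change 1.005 ± 0.12 SE, edgeR adjusted p = 2.29e-10), while RPS27 fell by 0.29 (± 0.06 SE, edgeR adjusted p = 3.95e-05). Limits from counts of 0 cover counting error only.

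**Figure D4:**
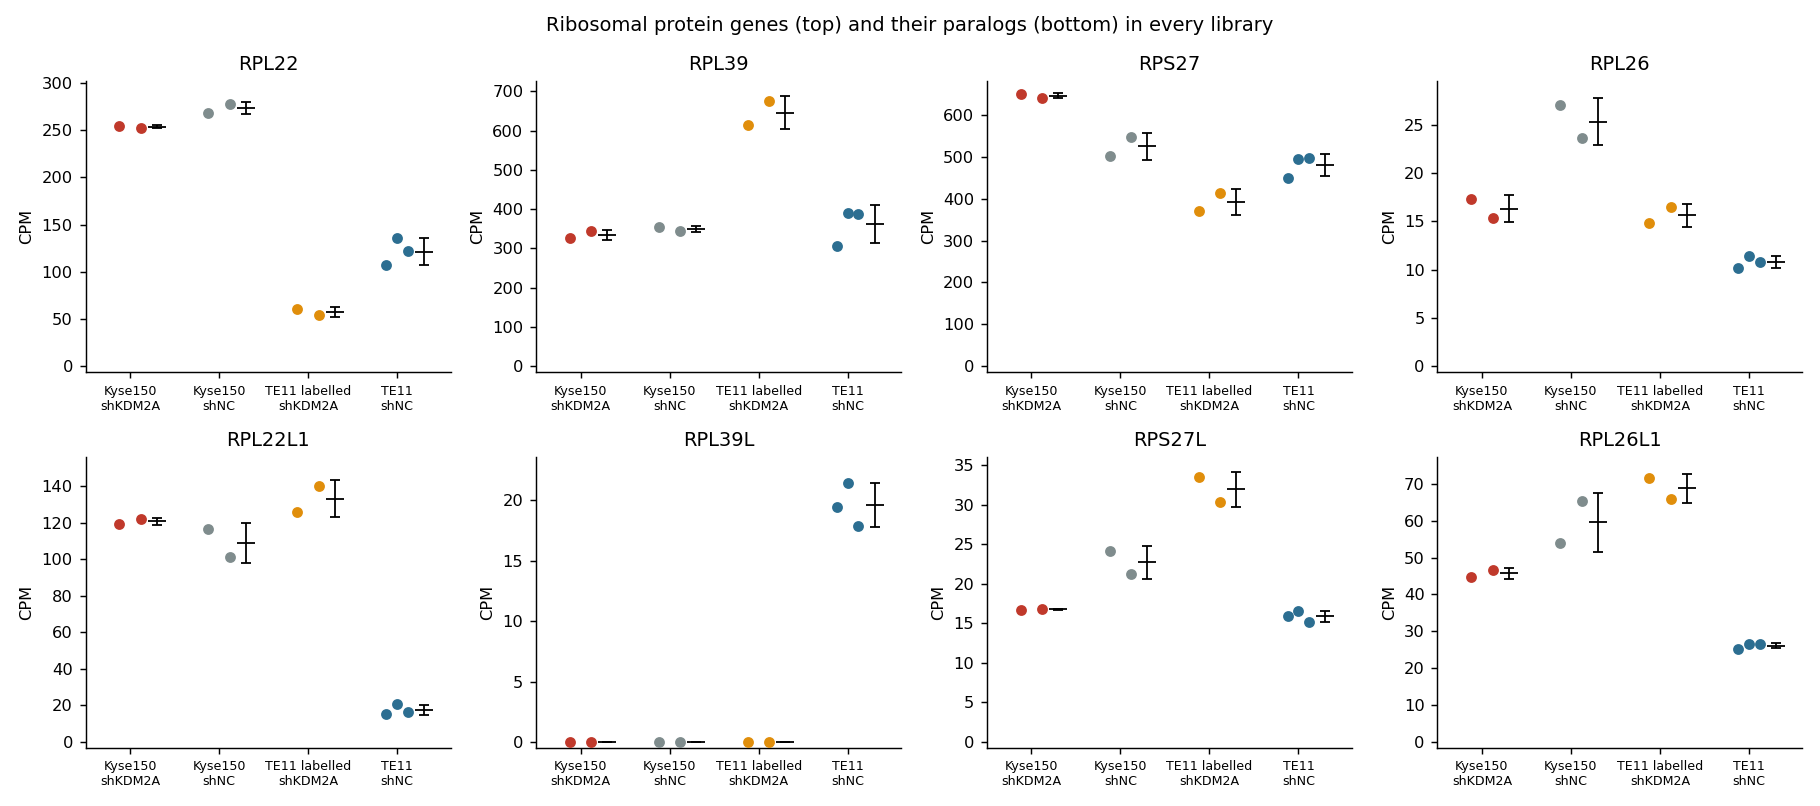
Level in CPM of 4 ribosomal protein genes (top) and a paralog of each (bottom) in every library, 1 point a library, with mean and SD beside the points; each line was scaled within its own table. RPL39L is at 0 in 3 of the 4 groups, and RPL22L1 is lower in the TE11 controls than in the other groups.

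The responses of the lines were set against each other in 1 fit of all 9 libraries. Of 81 members tested, 37 had a higher response in TE11 than in Kyse150 (beside 33.8% of all genes) and 28 a lower one (beside 33.1% of all genes), 80.2% in all, beside 66.9% of 15895 genes. At 1.5-fold or more, 21 were higher (beside 28.1% of all genes) and 13 lower (beside 29.2% of all genes), 42.0% in all, beside 57.2%. Over the 17 alternatives, 33 of the 37 and 22 of the 28 kept direction and call in each. In the separate fits 79 members were tested in both lines, 36 called in Kyse150 and 68 in TE11, and 29 in both. Of those 29, 7 moved the same way (2 higher in both, 5 lower in both) and 22 (75.9%) moved in opposite directions, beside 72.2% of the 5323 genes called in both lines. Of the 22, 14 were lower in Kyse150 knockdowns and higher in the TE11 libraries labelled knockdown. Those lower in both were RPL36AL, RPS27A, RPL23A, RPL35A and RPL14. The TE11 call of RPL14 did not hold under every alternative, and the Kyse150 calls of both genes that were higher in both lines did not either. The largest differences upward were RPL17 at 1.59 (± 0.35 standard error, edgeR adjusted p = 5.75e-05), RPS27L at 1.47 (± 0.19 standard error, edgeR adjusted p = 1.1e-09), RPS13 at 1.35 (± 0.09 standard error, edgeR adjusted p = 1.5e-20) and RPS25 at 1.33 (± 0.08 standard error, edgeR adjusted p = 5.3e-22) on the log2 scale. In Kyse150 RPS13 had 224 and 228 CPM in the knockdowns, against 286 and 269 CPM in the controls (log2 fold change -0.30 ± 0.06 SE, edgeR adjusted p = 0.000201), and RPS25 had 363 and 338 CPM in the knockdowns, against 419 and 411 CPM in the controls (log2 fold change -0.24 ± 0.06 SE, edgeR adjusted p = 0.000768), each opposite to its rise in TE11. The largest differences downward were RPL36A at -1.19 (± 0.44 standard error, edgeR adjusted p = 0.0156), RPL13A at -1.13 (± 0.07 standard error, edgeR adjusted p = 3.34e-21) and RPL18 at -1.04 (± 0.08 standard error, edgeR adjusted p = 2.98e-17). For RPL36A this difference became 0.27 (edgeR adjusted p = 0.0256) with pseudogene counts added, and it was lost without Kyse150 knockdown replicate 2 (0.0964) and without TE11 labelled knockdown replicate 1 (0.106). Since KDM2A was not lower in the TE11 libraries labelled knockdown, these differences compare the labels and not 2 knockdowns.

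**Figure D5:**
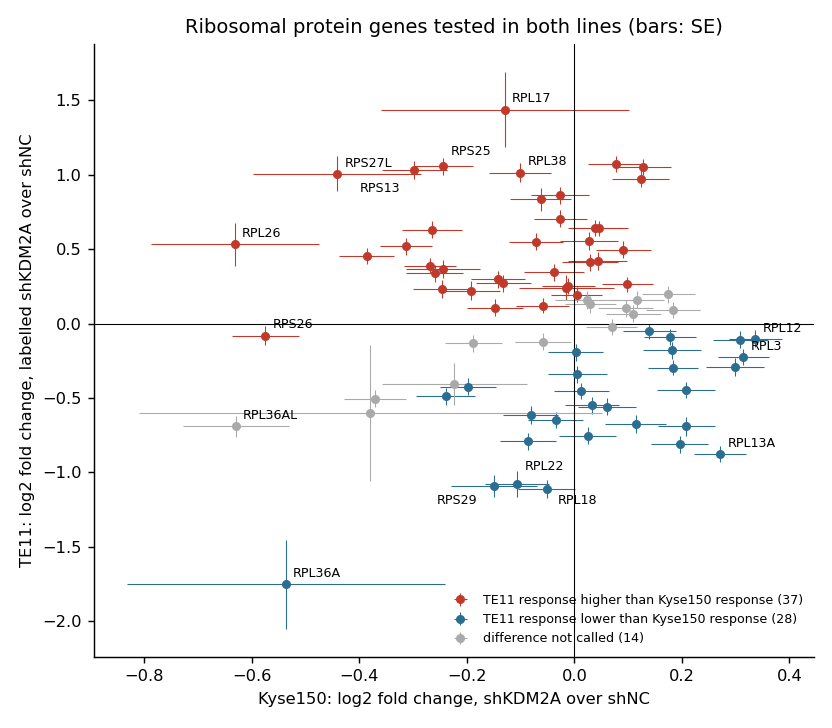
Log2 fold change in Kyse150 (horizontal axis, shKDM2A over shNC) against that in TE11 (vertical axis, labelled shKDM2A over shNC) for the 79 members tested in both, with SE bars; red marks 37 members whose TE11 response was called higher, blue 28 called lower, grey 14 not called. RPS13, RPS25, RPS27L and RPL26 lie at the upper left, and RPL13A at the lower right.

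Members with a pyrimidine start by the rule above and members without one both held rises and falls. The rule reads only the listed start base, so the split need not separate TOP mRNAs from others. RPL4, RPL10A and RPL19, counted as without it, carry a pyrimidine run within a few bases of a listed start. In Kyse150, 47 tested members with such a start had 9 rises, 11 falls and a median log2 fold change of -0.01, and 18 tested members without it had 2 rises, 6 falls and a median of -0.04. In TE11 the members with it had 23 rises, 17 falls and a median of 0.09, and those without it 11 rises, 5 falls and a median of 0.21. Over all genes tested, 24.8% were higher and 23.3% lower in Kyse150, and 35.9% higher and 42.2% lower in TE11. Among the starts printed above, RPL12 and RPL26 both carry the run and moved in opposite directions in Kyse150.

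Genes that act on the family without belonging to it were read from lists chosen with earlier results of these data known. Of 9 chaperones and escorts that carry single ribosomal proteins to the assembly line, 7 fell in Kyse150 knockdowns and 0 rose, beside 23.3% of all genes lower and 24.8% higher, with a median log2 fold change of -0.69 beside 0.00 over all genes. GRWD1, a chaperone of RPL3, had 101 and 97.0 CPM in the knockdowns, against 196 and 192 CPM in the controls (log2 fold change -0.97 ± 0.07 SE, edgeR adjusted p = 8.74e-12). LTV1, a 40S assembly factor, had 12.7 and 18.4 CPM in the knockdowns, against 37.7 and 37.9 CPM in the controls (log2 fold change -1.29 ± 0.15 SE, edgeR adjusted p = 9.75e-08), and BCCIP, an escort of RPL23, had 54.2 and 51.1 CPM in the knockdowns, against 87.7 and 83.9 CPM in the controls (log2 fold change -0.70 ± 0.09 SE, edgeR adjusted p = 3.68e-07). In TE11, 6 of the 9 were higher in the libraries labelled knockdown and 1 was lower, beside 35.9% and 42.2% of all genes, with a median of 0.86 beside -0.09. There RPS19BP1, a binding partner of RPS19, had a log2 fold change of 1.94 (± 0.08 standard error, edgeR adjusted p = 6.17e-25), GRWD1 of 1.09 (± 0.07 standard error, edgeR adjusted p = 1.52e-18) and BCCIP of 0.85 (± 0.07 standard error, edgeR adjusted p = 5.93e-15). Of 5 ribosomal components outside the naming rule, 1 rose and 2 fell in Kyse150 and 5 of 5 were higher in the TE11 libraries labelled knockdown, beside the same shares of all genes. In Kyse150 RPL7L1 and RPL26L1 fell, with log2 fold changes of -0.48 (± 0.06 standard error, edgeR adjusted p = 8.14e-07) and -0.38 (± 0.11 standard error, edgeR adjusted p = 0.00402), and RACK1, a scaffold on the 40S head, had 0.13 (± 0.05 standard error, edgeR adjusted p = 0.03). The RPL26L1 call ended without control replicate 2 (edgeR adjusted p = 0.127) and that of RACK1 in DESeq2 (adjusted p = 0.0704), without knockdown replicate 1 (0.147) and without control replicate 1 (0.464). In TE11 RPL26L1 had 1.39 (± 0.09 standard error, edgeR adjusted p = 2.04e-18).

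Other mRNAs known for a TOP start gave 4 rises and 3 falls among 11 tested in Kyse150, and 6 rises and 4 falls among 11 in TE11. The called shares were 63.6% and 90.9%, beside 48.2% of all genes in Kyse150 and 78.1% in TE11. EEF2, the translocation factor of elongation, had 5026 and 4689 CPM in the knockdowns, against 3950.5 and 4179 CPM in the controls (log2 fold change 0.26 ± 0.05 SE, edgeR adjusted p = 6.3e-05). TPT1 rose by 0.24 (± 0.05 SE, edgeR adjusted p = 0.000134), and HNRNPA1, a splicing factor, fell by 0.57 (± 0.05 SE, 4.62e-10). In TE11 the initiation factor subunits EIF3H and EIF3F went opposite ways, at -1.93 (± 0.06 standard error, edgeR adjusted p = 2.14e-30) and 1.53 (± 0.07 standard error, edgeR adjusted p = 1.03e-24), and PABPC1, the poly(A)-binding protein, rose by 0.88 (± 0.05 SE, edgeR adjusted p = 7.9e-20). In the mTORC1 arm, 3 of 13 genes rose and 5 fell in Kyse150, and 5 rose and 5 fell in TE11, called shares of 61.5% in Kyse150 and 76.9% in TE11. DDIT4, a stress-induced inhibitor of mTORC1, had 569.8 and 545 CPM in the knockdowns, against 193 and 180.1 CPM in the controls (log2 fold change 1.58 ± 0.06 SE, edgeR adjusted p = 1.16e-17). EIF4EBP1, a repressor of cap-dependent initiation, rose by 0.65 (± 0.07 SE, edgeR adjusted p = 2.69e-08) and SESN2, another stress-induced inhibitor, by 1.23 (± 0.17 SE, 1.48e-06). In TE11 DDIT4 had 87.3 and 83.00 CPM in the libraries labelled knockdown, against 574, 583 and 582 CPM in the controls (log2 fold change -2.77 ± 0.07 SE, edgeR adjusted p = 2.04e-34), while RPTOR, the scaffold of mTORC1, had 1.21 (± 0.08 standard error, edgeR adjusted p = 1.33e-17) and LARP1 0.54 (± 0.06 standard error, edgeR adjusted p = 4.6e-11). Activity of the pathway was not measured.

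Of 5 factors that bind promoters of ribosomal protein genes, 0 rose and 2 fell in Kyse150, and 1 rose and 4 fell in TE11, beside 48.2% of all genes called in Kyse150 and 78.1% in TE11. GABPA, which binds the ETS core named above, had 57.8 and 58.7 CPM in the knockdowns, against 88.9 and 83.6 CPM in the controls (log2 fold change -0.57 ± 0.09 SE, edgeR adjusted p = 7.03e-06), and MYC had 26.2 and 24.9 CPM in the knockdowns, against 41.2 and 35.4 CPM in the controls (log2 fold change -0.58 ± 0.13 SE, edgeR adjusted p = 0.000452), whereas SP1 gave 0.15 (± 0.08 standard error, edgeR adjusted p = 0.0928). In TE11 MYC had 42.1 and 38.6 CPM in the libraries labelled knockdown, against 281, 245 and 266 CPM in the controls (log2 fold change -2.71 ± 0.08 SE, edgeR adjusted p = 6.56e-31), GABPA 0.70 (± 0.07 standard error, edgeR adjusted p = 3.68e-12) and YY1 -0.43 (± 0.07 standard error, edgeR adjusted p = 1.47e-07). The mRNA of MDM2, whose protein RPL5 and RPL11 bind, fell in Kyse150 by 0.49 (± 0.09 SE, edgeR adjusted p = 3.2e-05). CDKN1A, which encodes the cell-cycle inhibitor p21, rose by 0.63 (± 0.14 SE, edgeR adjusted p = 0.000515). A link of these RNA levels to RPL5 or RPL11 was not tested. In the TE11 libraries labelled knockdown MDM2 was higher by 0.58 (edgeR adjusted p = 1.31e-08), and CDKN1A was lower at -1.18 (1.07e-11).

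Levels were compared between members as CPM per kilobase of coding sequence, which leaves out untranslated regions and so favours genes with very short coding sequences. RPL41, whose product is a short basic peptide that bridges the subunits, was highest in every group, at 14171 in Kyse150 knockdowns, 13738 in Kyse150 controls, 18298 in the TE11 libraries labelled knockdown and 11747 in TE11 controls. In CPM it had 1107 and 1019 in Kyse150 knockdowns, against 984 and 1076 in Kyse150 controls (log2 fold change 0.05 ± 0.05 SE, edgeR adjusted p = 0.514), and 1365 and 1379.7 in the TE11 libraries labelled knockdown, against 892, 859.7 and 891 in TE11 controls (log2 fold change 0.64 ± 0.05 SE, edgeR adjusted p = 6.16e-15). RPS2, an entry-side protein of the 40S subunit, had a level per kilobase of 4588 in Kyse150 knockdowns, 4039.8 in Kyse150 controls, 3658 in the TE11 libraries labelled knockdown and 4489 in TE11 controls. Its log2 fold change was 0.18 (± 0.05 standard error, edgeR adjusted p = 0.00186) in Kyse150, a call that ended with coding GC offsets, where the value was 0.038 (edgeR adjusted p = 0.367), and without knockdown replicate 1 (0.0562). It was -0.30 (± 0.05 standard error, edgeR adjusted p = 2.57e-06) in TE11. RPL37 of the large subunit reached 3721 in Kyse150 knockdowns, 3483 in Kyse150 controls, 3220.1 in the TE11 libraries labelled knockdown and 2998 in TE11 controls, and RPLP1 reached 3711 in Kyse150 knockdowns, 3269 in Kyse150 controls, 3409.6 in the TE11 libraries labelled knockdown and 3203 in TE11 controls; RPL37 passed the test in neither line. At the low end, 10 members stayed under 300 counts in every library, among them RPL3L, RPL10L, RPL17, RPL26, RPL36A, RPL39L, RPS10, RPS15A and RPS27L, while 71 held 500 or more counts in every library. In all, 51 members share exon bases with another annotated gene and 78 have named pseudogenes, 1596 of them, and the part of fragments assigned to such copies was not tested. Fragments aligned to more than 1 place, held by the tables outside the genes, made up 6.78% of a column in Kyse150 knockdowns, 6.59% in Kyse150 controls, 3.96% in the TE11 libraries labelled knockdown and 3.14% in TE11 controls (means over libraries).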

How the data were processed

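The authors deposited raw whole-number counts of fragments per gene, with each line in a table of its own. The submitters' processing notes list the tools bcl2fastq 2.19, HISAT2 2.1.0, HTSeq 0.9.1 and DESeq2. Both GRCh38.p13 and GRCh37.p13 appear there, with no statement of which table used which. The strand setting of the counting was not given, so antisense and overlapping genes are uncertain. The tables list 57820 identifiers for Kyse150 and 60683 for TE11, and the mitochondrial genes hold no counts in TE11. HTSeq's summary rows stayed out of library sizes and tests, and those on no feature made up 42.3% to 44.5% of a column.

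Genes were filtered with filterByExpr (minimum count 10, total 15), scaled by TMM and tested with edgeR 4.0.16 (robust quasi-likelihood, R 4.3.3) within each line, and in 1 fit of 9 libraries for the difference between responses. P-values were adjusted by Benjamini-Hochberg over every gene in a fit, and 0.05 was the threshold. CPM were scaled to the TMM-adjusted library within a line's table. Members, coding lengths, GC content and pseudogenes come from GENCODE 29 on GRCh38, and start sequences from RefSeq on GRCh38.p14. Replicate libraries differed beyond counting noise (chi-square per degree of freedom 1.62 to 4.92). The scripts were tested on simulated data in which 200 genes were changed, far fewer than were called in the real data. There 59% of 1.5-fold changes were recovered in Kyse150, 79% in TE11 and 43% for the difference between responses. For 2-fold changes the rates were 84%, 91% and 70%, in that order. These rates need not hold for the members. False calls made up 3.38%, 7.61% and 4.24% of the calls, in that order. Members and companion lists were chosen with earlier results of these data known. The named genes are KDM2A, the 3 highest members per line, the 6 largest called rises and falls per line, the 4 largest called differences each way, paralogs and their partners, the stalk genes, RPL5, RPL11 and RPS6, and of each companion list the 3 genes with the smallest p. A few genes under this rule are not reported here. RPL22 in Kyse150, RPL23A, RPL35A, RPL14, RPL6 and RPS24 were named for a count or a range after their values were seen. As alternatives, DESeq2 1.42.0, other scalings and filters, a replicate block, pseudogene counts added, the omission of each library and, chosen after seeing the data, GC offsets were tried.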

Additional observations from a re-analysis of the deposited data

Results flagged for a closer look

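The responses to the KDM2A label differed between the lines for ribosomal protein genes, as they did for most genes. In the contrast of the responses, TE11 minus Kyse150 (edgeR over 15895 genes), 37 members were called higher and 28 lower, 80.2% of the 81 tested, beside 66.9% of all genes. At 1.5-fold or more the share was 42.0% of members, beside 57.2% of all genes. The single members with the largest differences upward were RPL17 (log2 1.59), RPS27L (1.47), RPS13 (1.35) and RPS25 (1.33). Those with the largest differences downward were RPL36A (-1.19), RPL13A (-1.13) and RPL18 (-1.04). RPL17 and RPL36A rest on fewer than 100 counts a library. KDM2A was not lower in the TE11 libraries labelled knockdown, and the part of that in these differences was not tested.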

How the results depend on the processing

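In Kyse150 the count of members called higher moved most: 15 in the report became 24 with library totals, and 7 to 16 when each library was left out, while members called lower ran from 16 to 19 without single libraries. DESeq2 called 2156 genes higher and 2181 lower in Kyse150. Leaving out libraries gave 2757 to 2965 genes higher and 2652 to 2962 lower in Kyse150, 33 to 43 members higher and 26 to 33 lower in TE11, and 33 to 37 higher and 23 to 28 lower for the difference. The Kyse150 share difference was 0.420 points without mitochondrial genes and 0.269 to 0.389 without single libraries; in TE11 it was -0.168 points over protein-coding genes and 0.088 to 0.216 without single libraries. RPL39 in Kyse150 turned to 0.12 with GC offsets (adjusted p = 0.0206; 0.0206 to 0.881 over 14 alternatives), and RPL36A to 0.050 in TE11 and 0.27 for the difference with pseudogene counts added; the cause was not tested. Without a filter the TE11 median of all genes shifted by -0.37. Replicate numbers were taken as shared numbers only, since the labels state no pairing. Between libraries of the same number the correlation of deviations was -0.0682 in Kyse150, and 1e-04 and -0.0103 in TE11. In a group of 2 libraries the deviations mirror each other, so these values cannot settle whether libraries were paired. With a replicate block the members called higher and lower were 13 and 18 in Kyse150, 37 and 29 in TE11, and 34 and 25 for the difference. Members under 300 counts limit the precision of RPL17, RPL36A and RPS10.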
